A study of Mus musculus with 20 samples.

Results

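The 10 genes Fos, Fosb, Jun, Junb, Jund, Egr1, Ier2, Dusp1, Atf3 and Zfp36 are immediate early response genes, and they were taken by symbol from the gene counts of 20 bone marrow neutrophil libraries. They were 10 of 24421 genes in the files, and all 10 were among the 14030 genes that passed the filter on low counts. WT mice were C57BL/6J animals bought from a vendor. Bmal1 Mye-/- mice carried a floxed Bmal1 gene (listed as Arntl) and a Cre placed in Lyz2 (LysM-Cre), which is active in myeloid cells, and they were bred in house, so the WT mice were not their littermates. All were female, and treatment began at 8 to 10 weeks of age. In each genotype 5 mice were left untreated and 5 had 5% imiquimod (IMQ), an agonist of Toll-like receptors 7 and 8, put on the ear 3 times a week for 6 weeks as a model of lupus. Neutrophils were enriched by magnetic negative selection from marrow taken 1 to 4 h after lights on and were lysed without culture. The study compared treated with untreated mice and Bmal1 Mye-/- with WT mice.

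Immediate early genes are transcribed within minutes of a stimulus from transcription factors already in the cell, with no need for new protein, and their mRNAs are mostly short-lived. In neutrophils they are switched on by adhesion, cytokines, bacterial products and handling of the cells. Fos, Fosb, Jun, Junb, Jund and Atf3 encode bZIP proteins that pair with each other as AP-1 and related dimers, Egr1 encodes a zinc finger transcription factor, Ier2 a nuclear protein of the same early response, Dusp1 a phosphatase that switches off p38 and JNK MAP kinases, and Zfp36 encodes tristetraprolin, which binds AU-rich elements and speeds mRNA decay. Dusp1 and Zfp36 thus encode negative regulators of kinase signaling and of mRNA stability.

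Most of the 10 genes are compact, as is usual for the early response. The median span of the 10 in GENCODE M21 (GRCm38, the mm10 build named for the files) was 3852.5 bp. It was 23965.5 bp for the 12676 coding genes tested that have an annotated 3′ UTR. Dusp1 (56539 bp) and Atf3 (47744 bp) were longer than the median of those coding genes when counted to their outermost annotated start. The starts used for the promoters below lay well inside these spans, next to base 26508473 for Dusp1 and base 191183334 for Atf3. Counted from those starts to the gene ends at bases 26505590 and 191170296, both genes were shorter than that median. Jun, Junb, Jund and Ier2 had a single exon, which held for 2.20% of those genes. The AU-rich pentamer ATTTA occurred at a median of 2.89 per kb of 3′ UTR in the 10 genes and 1.30 per kb over all, with the highest density in Dusp1 (5.80 per kb) and Fos (4.91 per kb) and none in Ier2. The longer TATTTAT, the core that tristetraprolin binds best, was present in 7 of 10 against 27.2%. Dusp1 and Zfp36 each had 3 copies and Fos had 2, while Junb, Egr1 and Ier2 had none.

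The promoters are shown because the early response is set by a few short elements close to the start site. RefSeq promoters (GRCm38.p6) were searched for 8 of the 10 genes, and Egr1 and Ier2 were not among them. Of these 8, 6 held at least 1 of the motifs, searched on both strands in the 250 bases before the start. The motifs were the CArG box of serum response factor, the cAMP response element TGACGTCA and its shorter form TGACG that lies within it, the AP-1 site TGAGTCA, the E-box CACGTG, the EGR site GCGGGGGCG and TATAAA. The 6 sequences follow from 5′ to 3′, with each match in capitals and the start site just after the last base.
Fos (chr12:85473640-85473889, plus strand): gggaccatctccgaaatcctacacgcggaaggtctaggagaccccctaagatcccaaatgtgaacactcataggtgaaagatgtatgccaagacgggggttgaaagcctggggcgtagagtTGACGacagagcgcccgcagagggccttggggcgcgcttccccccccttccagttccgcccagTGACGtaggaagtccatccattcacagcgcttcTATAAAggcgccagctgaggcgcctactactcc
Fosb (chr7:19310046-19310295, minus strand): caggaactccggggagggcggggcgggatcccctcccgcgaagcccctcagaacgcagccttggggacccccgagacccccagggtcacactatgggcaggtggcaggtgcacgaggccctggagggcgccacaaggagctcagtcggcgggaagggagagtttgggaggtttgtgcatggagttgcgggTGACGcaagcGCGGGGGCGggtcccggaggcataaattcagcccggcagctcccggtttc
Junb (chr8:84978749-84978998, minus strand): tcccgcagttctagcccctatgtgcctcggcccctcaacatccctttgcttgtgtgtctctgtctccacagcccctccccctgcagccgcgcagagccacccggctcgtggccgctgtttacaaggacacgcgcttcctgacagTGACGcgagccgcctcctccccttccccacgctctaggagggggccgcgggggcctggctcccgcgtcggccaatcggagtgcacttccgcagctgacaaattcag
Atf3 (chr1:191183334-191183583, minus strand): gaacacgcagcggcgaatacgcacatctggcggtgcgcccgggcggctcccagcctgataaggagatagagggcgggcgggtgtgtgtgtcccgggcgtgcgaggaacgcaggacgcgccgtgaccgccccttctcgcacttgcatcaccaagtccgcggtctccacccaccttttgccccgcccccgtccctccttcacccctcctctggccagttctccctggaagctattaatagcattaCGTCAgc
Dusp1 (chr17:26508473-26508722, minus strand): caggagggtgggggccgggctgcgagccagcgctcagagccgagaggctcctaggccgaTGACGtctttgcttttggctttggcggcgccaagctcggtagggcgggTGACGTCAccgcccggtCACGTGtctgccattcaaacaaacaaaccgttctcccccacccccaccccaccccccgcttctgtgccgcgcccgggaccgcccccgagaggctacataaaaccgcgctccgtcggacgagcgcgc
Zfp36 (chr7:28379229-28379478, minus strand): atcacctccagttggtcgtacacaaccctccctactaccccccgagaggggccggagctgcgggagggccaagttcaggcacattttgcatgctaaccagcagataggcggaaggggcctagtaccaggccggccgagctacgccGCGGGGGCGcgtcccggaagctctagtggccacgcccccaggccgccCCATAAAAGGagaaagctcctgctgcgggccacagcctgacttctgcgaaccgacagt
Fos held TATAAA at positions -33 to -28 and TGACG at -129 and -66, counted back from the start. Of the 8 windows searched, only that of Zfp36 held a CArG box, at -58 to -49. This motif was found in 1.47% of all 32851 promoters in the table. Bases farther upstream, and the promoters of Egr1 and Ier2, were not searched for it. Dusp1 held the complete TGACGTCA at -143 to -136 (1.55% of all promoters) and an E-box at -126 to -121 (6.02%). TGACG was present in 5 of 8 against 17.8%, GCGGGGGCG in Fosb and Zfp36 (2 of 8 against 2.57%), TATAAA in 1 of 8 against 12.4%, and TGAGTCA in 0 of 8 against 4.46%. Jun and Jund held none of these letters in this window. For Jund the window ended at base 70697738 of chromosome 8, before the GENCODE gene start at base 70698949. It was thus not next to the annotated gene, though Jund is counted among the 8. For Fos and Jun the start in the table is the outermost start of GENCODE, and for the other 6 it is another site, so a different window of the same gene could read differently.

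The libraries held 30782166 to 92613500 gene counts each, and the lowest of the 10 genes, Atf3, had 126 to 1748 counts per library. Levels below are gene counts scaled to library size (CPM) with TMM factors. Lyz2, which the Cre insertion interrupts, was 11408 ± 593 CPM in untreated WT and 135 ± 29.8 in untreated Bmal1 Mye-/- (SD, n = 5 each), and 8059 ± 3358 and 98.4 ± 27.3 after IMQ. Arntl was 1.35 ± 0.32 and 0.72 ± 0.24 CPM untreated and 1.11 ± 0.47 and 0.70 ± 0.48 after IMQ, lower in Bmal1 Mye-/- without passing the test. The neutrophil gene S100a8 was at 12184 to 30461 CPM in all 20 libraries, and the B cell gene Cd79a at 2.57 to 12.9. Libraries 3 of IMQ-treated WT and 1 and 5 of IMQ-treated Bmal1 Mye-/- stood apart in their summed markers of mature neutrophils, with 9621, 6087 and 12519 CPM against 17284 to 34990 in the other 17. Library 3 of IMQ-treated WT and library 5 of IMQ-treated Bmal1 Mye-/- also had the highest erythroid sums (546 and 489 CPM), and library 1 of IMQ-treated Bmal1 Mye-/- had the highest monocyte sum, 3901 against 738 to 1881 in the other 19. In bulk samples fewer cells of a type and less RNA per cell cannot be told apart.

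In untreated WT neutrophils the 10 mRNAs together took 0.819% ± 0.147 of all gene counts (SD, n = 5). The share was 0.848% ± 0.365 in untreated Bmal1 Mye-/-, 0.556% ± 0.195 in IMQ-treated WT and 0.526% ± 0.117 in IMQ-treated Bmal1 Mye-/-. Over single libraries it ran from 0.257% in library 3 of IMQ-treated WT to 1.40% in library 4 of untreated Bmal1 Mye-/-.

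Per kb of exon, the order in untreated WT ran from Junb (816 ± 213 CPM per kb, SD, n = 5) and Fos (795 ± 110) through Zfp36 (543 ± 89.4), Dusp1 (537 ± 148) and Ier2 (430 ± 80.7) to Jund (183 ± 48.3), Jun (143 ± 48.6) and Egr1 (111 ± 23.6), and ended with Fosb (12.7 ± 6.51) and Atf3 (6.14 ± 3.70). Neighbours in this order overlapped between libraries except at 2 steps, from Ier2 to Jund and from Egr1 to Fosb. Fosb was thus far below its paralogue Fos, and the levels fell into an upper set of 5 genes, a middle set of 3 and a lower pair. The length used was that of all annotated exons merged. For Zfp36 it equalled the whole gene span of 3470 bp, although the coding transcript chosen for it had 2 exons. Its value per kb may therefore be too low, and its rank against Junb and Fos is uncertain. After IMQ in Bmal1 Mye-/-, Junb still ranked first by these lengths at 462 ± 226 CPM per kb. Egr1 stood at 22.8 ± 9.35, below all libraries of Jun and within the range of Fosb (15.9 ± 17.8).

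**Figure D1:**
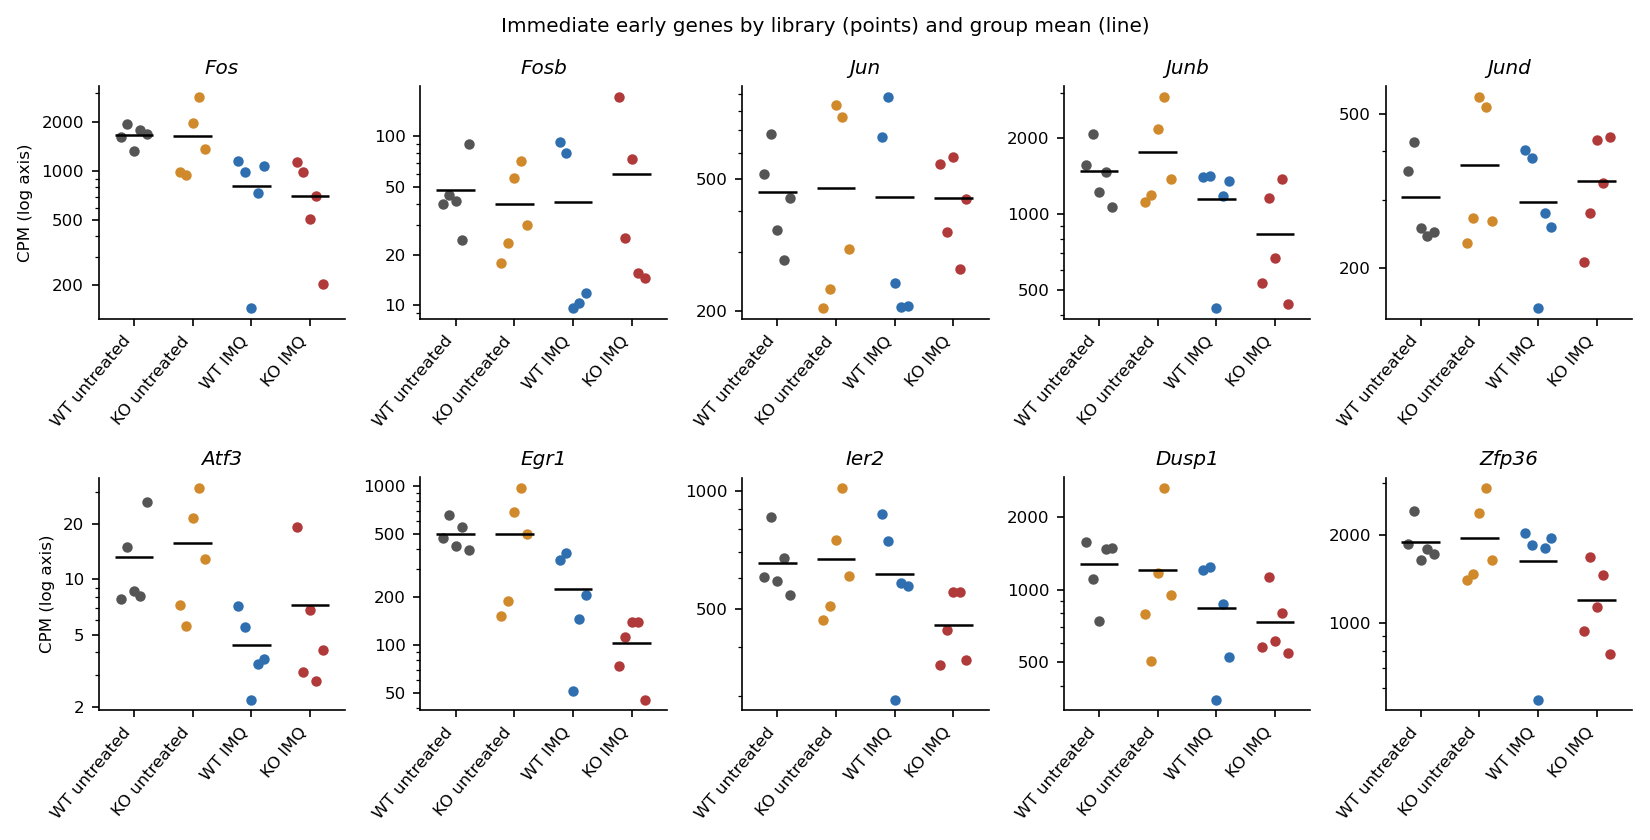
Level of each gene in CPM (log axis) in the 20 libraries, with 1 point per mouse in replicate order and a line at the group mean (n = 5, KO for Bmal1 Mye-/-). Egr1 is lower in every IMQ-treated Bmal1 Mye-/- library than in every untreated one, the untreated WT points are close together for Fos, Ier2 and Zfp36, and library 3 of IMQ-treated WT is the lowest of its group for 9 of the 10 genes.

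Egr1 gave the clearest change. In untreated WT its 5 libraries read 471, 657, 419, 551 and 399 CPM, in untreated Bmal1 Mye-/- 153, 189, 691, 971 and 502. After IMQ they read 342, 382, 51.7, 146 and 206 CPM in WT and 73.7, 113, 140, 140 and 45.2 in Bmal1 Mye-/-. In both genotypes every treated library was below every untreated library of the same genotype. Egr1 fell 4.90-fold with IMQ in Bmal1 Mye-/- (log2 fold change -2.29, SE 0.51, adjusted p = 0.00775, edgeR quasi-likelihood test with Benjamini-Hochberg adjustment over 14030 genes). In WT the difference was -1.15 (SE 0.50) with an adjusted p of 0.176, and it did not pass the test. The difference between the 2 effects was -1.14 (SE 0.69, 95% interval -2.60 to 0.31, adjusted p = 0.640), so a stronger fall in Bmal1 Mye-/- was not shown. Without the 3 libraries that stood apart, Egr1 kept its call in Bmal1 Mye-/- at -1.94 (adjusted p = 0.0197).

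Of the AP-1 genes, Junb and Fos were the most abundant, and Junb passed the test. Junb encodes a Jun protein that can restrain cell division. Its libraries read 1114, 1192, 2167, 2903 and 1369 CPM in untreated Bmal1 Mye-/- and 532, 1157, 670, 1377 and 443 after IMQ. The groups overlapped, with libraries 2 and 4 of the treated mice inside the untreated range. Junb fell 2.09-fold (log2 fold change -1.07, SE 0.36, adjusted p = 0.0388, edgeR). The call was lost without library 1, 3 or 5 of IMQ-treated or library 3 or 4 of untreated Bmal1 Mye-/- (adjusted p 0.0793 to 0.125), and without the 3 libraries that stood apart (-0.71, adjusted p = 0.122). In WT, Junb read 1553, 2074, 1220, 1467 and 1066 CPM untreated and 1396, 1407, 425, 1178 and 1347 after IMQ, a difference of -0.36 (SE 0.35, adjusted p = 0.590).

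Fos, which needs a Jun partner to bind DNA, was lower on average in both treated groups without passing the test. It read 1626, 1944, 1322, 1790 and 1695 CPM in untreated WT and 1151, 987, 145, 732 and 1074 after IMQ. In untreated Bmal1 Mye-/- it read 993, 954, 1987, 2866 and 1371 CPM, and 1141, 985, 507, 709 and 204 after IMQ. The WT groups did not overlap, and the Bmal1 Mye-/- groups overlapped through libraries 1 and 2 of both. The log2 fold change was -1.03 (SE 0.46, adjusted p = 0.185) in WT and -1.20 (SE 0.46, adjusted p = 0.0614) in Bmal1 Mye-/-. In Bmal1 Mye-/- it passed with DESeq2 (adjusted p = 0.0260) and without the 3 libraries that stood apart (-1.15, adjusted p = 0.0250), so this call depended on the test and on the libraries.

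Atf3, a stress-induced repressor of cytokine genes, was the lowest of the 10 genes, at the 46.9th percentile of expression among the genes tested. It read 7.85, 15.0, 8.66, 8.16 and 26.5 CPM in untreated WT and 7.13, 5.51, 2.20, 3.45 and 3.66 after IMQ, and these groups did not overlap. The log2 fold change of -1.59 (SE 0.57) had an adjusted p of 0.103 by edgeR and of 0.0348 by DESeq2. In Bmal1 Mye-/- it read 7.28, 5.55, 21.7, 31.6 and 12.9 CPM untreated and 19.4, 3.10, 6.83, 2.78 and 4.11 after IMQ. Treated libraries 1 and 3 lay among the untreated values, library 1 being the one with high monocyte markers. The log2 fold change of -1.12 (SE 0.56, adjusted p = 0.140) became -1.89 (adjusted p = 0.0233) without that library. The part of the monocyte markers in this was not tested.

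Fosb and Jun showed large swings between mice, and their differences with treatment did not pass the test. In IMQ-treated WT, Fosb read 92.2 and 79.7 CPM in libraries 1 and 2 and 9.62, 10.4 and 11.9 in libraries 3, 4 and 5. Jun split in the same libraries, with 668 and 885 CPM against 242, 205 and 207. Fosb in IMQ-treated Bmal1 Mye-/- ran from 14.4 CPM in library 5 to 172 in library 1. Its log2 fold changes with IMQ were -0.24 (SE 0.73) in WT and 0.59 (SE 0.73) in Bmal1 Mye-/-, and those of Jun were -0.04 (SE 0.45) and -0.11 (SE 0.45), all far from the threshold (adjusted p 0.565 to 0.968). The 95% intervals for Fosb were -1.76 to 1.28 in WT and -0.93 to 2.12 in Bmal1 Mye-/-. Those for Jun were -0.99 to 0.90 and -1.05 to 0.84, so these values do not show that a difference is absent. Jund, the most constantly expressed Jun gene in most tissues, gave -0.04 (SE 0.29) and -0.13 (SE 0.29), with group means of 296 to 368 CPM.

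The 3 remaining genes gave smaller differences. Dusp1 read 1275 ± 350 CPM in untreated WT and 839 ± 397 after IMQ (SD, n = 5), and 1211 ± 831 and 732 ± 240 in Bmal1 Mye-/-, with log2 fold changes of -0.60 (SE 0.39, adjusted p = 0.384) and -0.73 (SE 0.39, adjusted p = 0.172). Zfp36, the most abundant of the 10 by counts, read 1886 ± 310 and 1635 ± 614 CPM in WT and 1957 ± 648 and 1201 ± 369 in Bmal1 Mye-/-. Its log2 fold changes were -0.21 (SE 0.29) and -0.70 (SE 0.29, adjusted p = 0.0842). In IMQ-treated WT, 4 of its libraries lay between 1801 and 2032 CPM and library 3 at 547. Ier2 gave -0.09 (SE 0.25) in WT and -0.56 (SE 0.25, adjusted p = 0.104) in Bmal1 Mye-/-.

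**Figure D2:**
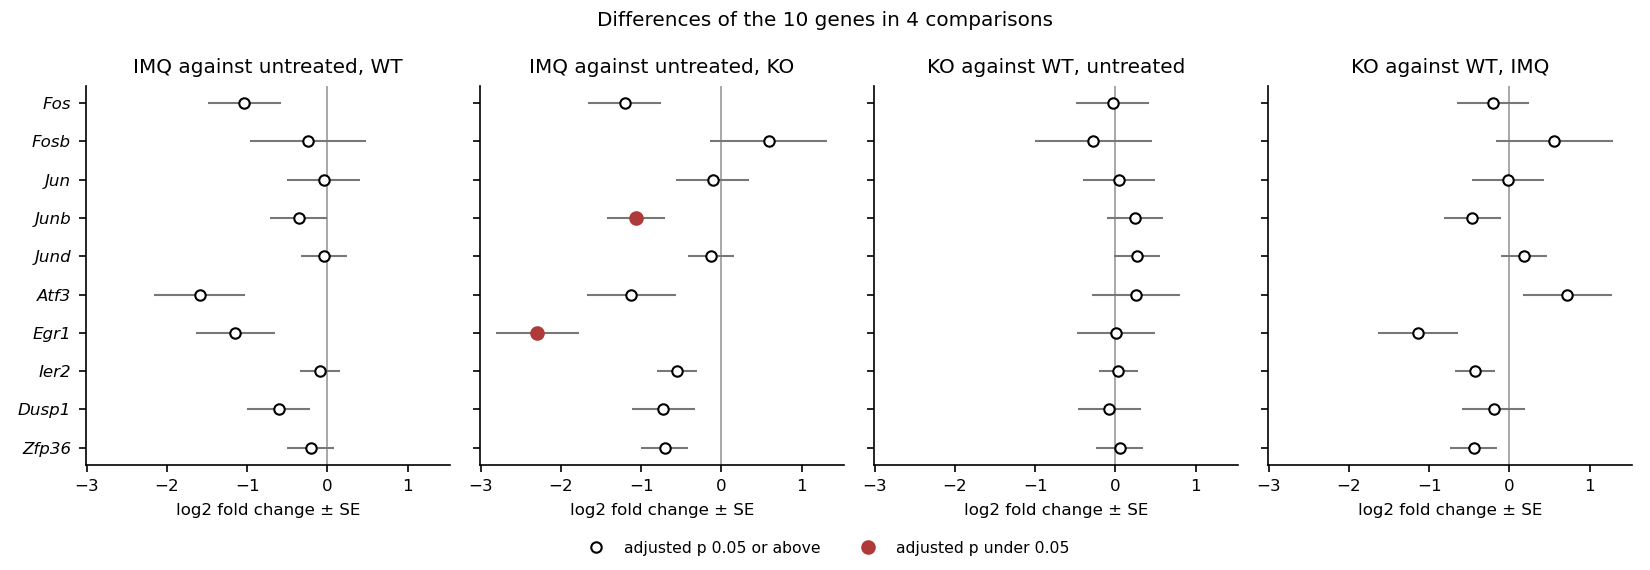
Log2 fold change of each gene with its SE (bars) in 4 comparisons (KO for Bmal1 Mye-/-), first group over second, with filled points for an adjusted p under 0.05 (edgeR). Only Egr1 at -2.29 and Junb at -1.07 are filled, both for IMQ against untreated in Bmal1 Mye-/-, and all 10 points lie between -0.27 and 0.27 for untreated Bmal1 Mye-/- against untreated WT.

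Counted over the list, 0 of 10 genes passed in WT with IMQ (edgeR) against 3.95% of all genes tested (554 of 14030), with 3 of 10 at an unadjusted p under 0.05 against 22.3%. DESeq2 called 1 (Atf3) and limma 0. All 10 estimates were below 0, with a median log2 fold change of -0.30 against 0.03 for all genes, and the libraries of Fos, Egr1 and Atf3 did not overlap, which held in the lower direction for 3.31% of all genes. That direction rested in part on library 3: without the 3 libraries that stood apart, Jun, Jund and Ier2 turned to between 0.07 and 0.10 and Fosb and Zfp36 to 0.00, and 5 of 10 stayed below 0. In Bmal1 Mye-/- 2 of 10 passed, both lower, against 9.04% of all genes in that direction and 23.5% in either (3292 genes). At an unadjusted p under 0.05 there were 5 of 10 against 39.3%, and 9 of 10 estimates were below 0 with a median of -0.72 against 0.02. The 1 gene without overlap (Egr1) compares with 9.31% of all genes in the lower direction. In the same comparison 6 of 9 monocyte markers rose, such as Ccr2, a chemokine receptor (2.30, SE 0.57, adjusted p = 0.0117), while 0 of 9 passed in WT. Of 13 mature neutrophil markers 12 were below 0 in Bmal1 Mye-/-, with 4 called lower and 1 higher, and their sum was 6087 to 25724 CPM in treated and 27394 to 33921 in untreated libraries, with no overlap. Of 12 immature neutrophil markers 11 were above 0 and 3 were called higher, the proliferation genes Top2a and Mki67 and the gene Tuba1b. No granule protein gene of that list was called. The sum of the list was 26203 to 40009 CPM in treated and 29324 to 36112 in untreated libraries, which overlapped. The part of these markers in the values of the 10 genes was not tested. The 10 genes vary together from mouse to mouse, so they are not 10 independent readings.

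Between the genotypes no gene of the 10 passed. In untreated mice the log2 fold changes of Bmal1 Mye-/- over WT ran from -0.27 (Fosb) to 0.27 (Jund), 0 of 10 had an unadjusted p under 0.05 against 2.19% of all genes, and 29 genes (0.207%) were called over all (edgeR). DESeq2 and limma also called 0 of the 10. The 95% interval of the difference was narrowest for Ier2 (-0.48 to 0.55) and widest for Fosb (-1.79 to 1.25). In IMQ-treated mice 0 of 10 passed against 0.292% of all genes (41 genes), and Egr1 alone had an unadjusted p under 0.05, against 19.9% of all genes (log2 fold change -1.14, SE 0.50, 95% interval -2.18 to -0.10, adjusted p = 0.238). DESeq2 and limma called 0 of the 10. Without library 3 of IMQ-treated WT, Egr1 (-1.38, adjusted p = 0.0382) and Zfp36 (-0.66, adjusted p = 0.0434) passed, so the outcome turned on that library. Over all genes the number called rose from 41 of 14030 to 3129 of 14263 (21.9%) without it, so 2 of 10 was close to the share of all genes. The interaction of genotype and IMQ gave 0 of 10, with 0% of all genes called and 0 of 10 at an unadjusted p under 0.05 against 5.14%. The 4 groups enter more than 1 of these comparisons, so the comparisons share samples and are not independent.

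The 10 genes differed more between mice of 1 group than most genes tested did. The within-group SD of log2 CPM over the 20 libraries was 1.26 for Fosb, 0.92 for Atf3, 0.91 for Egr1, 0.87 for Fos, 0.78 for Jun, 0.67 for Dusp1, 0.62 for Junb, 0.53 for Zfp36, 0.50 for Jund and 0.42 for Ier2, against a median of 0.38 over all genes tested. Among genes within 1 log2 unit of the same level, Fos stood at the 99.6th percentile, Fosb at the 99.6th, Egr1 and Jun at the 98.7th and Dusp1 at the 98.2nd, and Ier2 was lowest at the 83.2nd. Most highly expressed genes had small SDs, so that Fos, at the 99.2nd percentile of expression, lay well above its neighbours.

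**Figure D3:**
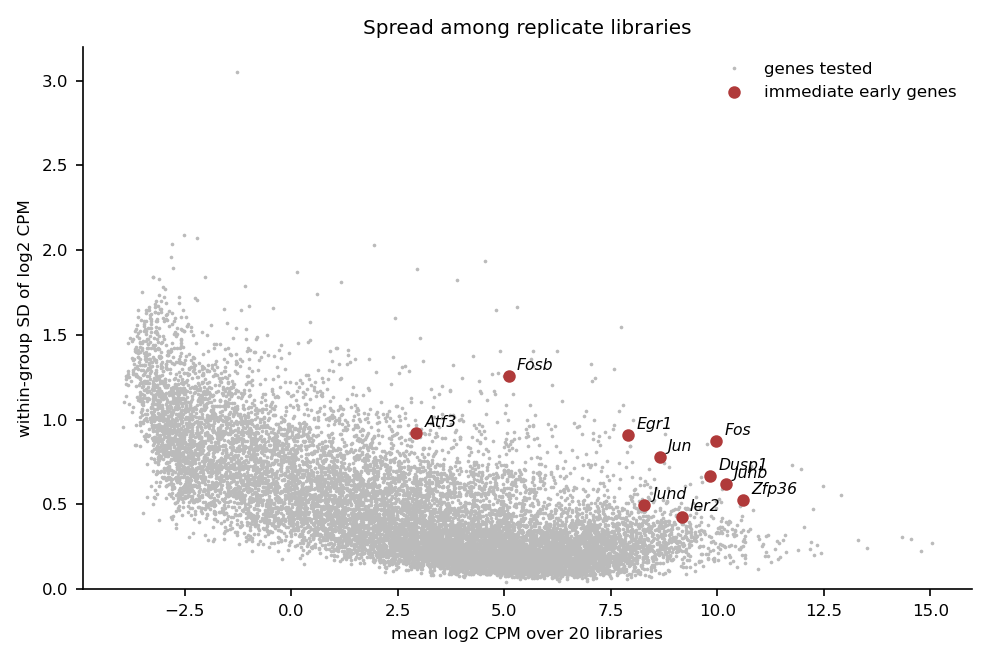
Within-group SD of log2 CPM against mean log2 CPM for the 14030 genes tested (grey), with the 10 immediate early genes in red. All 10 lie above the median SD of 0.38, and Fosb (1.26) is the highest of them.

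The spread was smallest in untreated WT for 7 of the 10 genes, the others being Jun, Dusp1 and Atf3. The SD of log2 Fos was 0.21 in untreated WT, 0.68 in untreated Bmal1 Mye-/-, 1.25 in IMQ-treated WT and 0.99 in IMQ-treated Bmal1 Mye-/-, and that of Egr1 was 0.30, 1.17, 1.16 and 0.70. The median SD over all genes tested was 0.21, 0.19, 0.45 and 0.45 in the same order, also larger after IMQ. With IMQ the SD was larger for 9 of the 10 genes in WT and for 4 of 10 in Bmal1 Mye-/-. In untreated mice all 10 genes had a larger SD in Bmal1 Mye-/- than in WT, with ratios from 1.27 (Fosb) to 3.95 (Egr1) and a median of 1.85. Over all genes tested the median ratio was 0.99, 49.3% were above 1 and 14.5% were above 1.85. The wide spread came from libraries 3 and 4, which were high, and libraries 1 and 2, which were low: library 4 was the highest of its group for 8 of the 10 genes and library 1 the lowest for 7. Leaving out any 1 of the 10 untreated libraries kept all 10 ratios above 1, with medians of 1.37 (without library 4 of Bmal1 Mye-/-) to 2.49 (without library 2 of WT). The difference in spread was not tested, because the genes vary together and the groups hold 5 mice each. Library 3 was also the shallowest, with 30782166 gene counts.

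The 10 genes rose and fell together from mouse to mouse. After subtracting group means, the Pearson correlation over the 20 libraries was above 0 for all 45 pairs, with a median of 0.64, and 30 pairs exceeded 0.5. The values ran from 0.18 for Junb with Atf3 to 0.95 for Junb with Zfp36, and Egr1 with Ier2 gave 0.93. Chosen after these values were seen, Fos, Junb, Egr1, Ier2 and Zfp36 formed 1 block (10 pairs, 0.72 to 0.95) and Fosb, Jun and Atf3 another (3 pairs, 0.71 to 0.85), with 0.18 to 0.65 between the blocks. In the first block library 3 of IMQ-treated WT lay farthest below its group for each gene, while in the second the library farthest below its group was a different one for each gene. Without the 3 libraries that stood apart all 45 pairs stayed above 0, with a median of 0.67 and 39 pairs over 0.5. Library scaling and depth are shared by all genes of a library, and with no TMM factors the median was 0.62 with 29 pairs over 0.5.

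**Figure D4:**
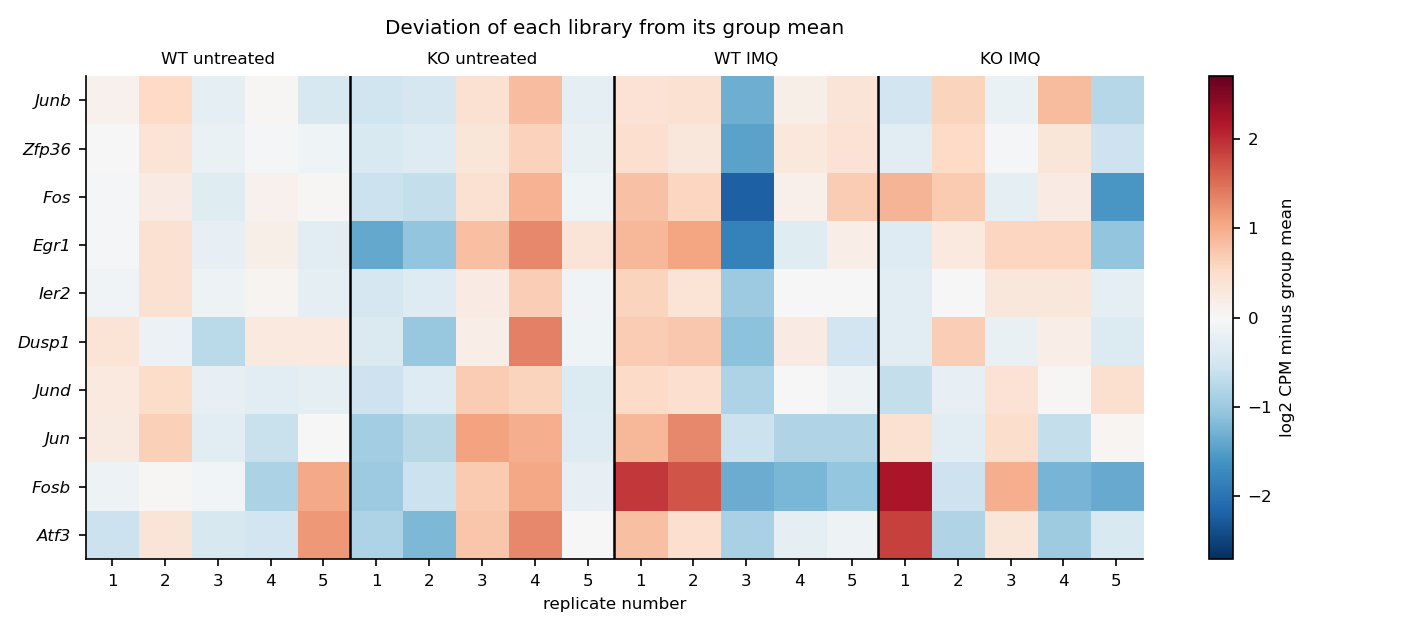
Deviation of each gene in each library from its group mean (log2 CPM, red above, blue below), for the 4 groups of 5 libraries (KO for Bmal1 Mye-/-). Columns tend to be of 1 colour from top to bottom, as in libraries 1 to 4 of untreated Bmal1 Mye-/-, and Fosb and Atf3 depart from Junb, Zfp36 and Egr1 in library 1 of IMQ-treated Bmal1 Mye-/-.

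Averaged over the 10 genes as log2 deviation from the mean of all libraries, the lowest libraries were number 3 of IMQ-treated WT (-1.56) and number 5 of IMQ-treated Bmal1 Mye-/- (-0.998), and the highest were numbers 4 (1.29) and 3 (0.89) of untreated Bmal1 Mye-/-. All 5 IMQ-treated Bmal1 Mye-/- libraries lay below 0 (-0.998 to -0.11) and all 5 untreated WT libraries above it (0.11 to 0.73). The same lowest libraries had low mature neutrophil sums and high erythroid sums. Within groups the mean of the 10 genes had a Pearson correlation of -0.63 with the summed erythroid markers, 0.33 with mature and 0.40 with immature neutrophil markers, 0.23 with monocyte and -0.37 with macrophage markers, and -0.08 with the heat shock genes (20 libraries, a description). Hemoglobin genes were listed at 0 in all 20 libraries, so the erythroid sum rests on other genes such as Alas2. The part of the cell-type markers in the level of the 10 genes was not tested.

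**Figure D5:**
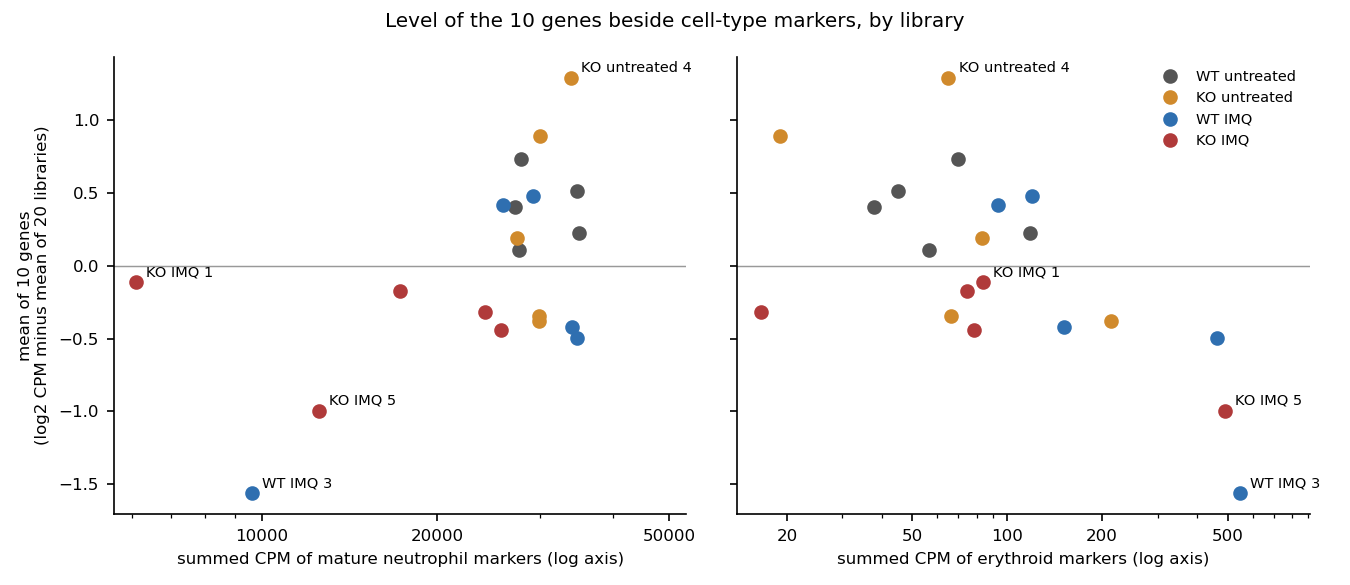
Mean of the 10 genes (log2 CPM minus the mean of the 20 libraries) against the summed CPM of mature neutrophil markers (left, log axis) and erythroid markers (right, log axis), 1 point per library (KO for Bmal1 Mye-/-). The 2 lowest libraries, at -1.56 and -0.998, are low for mature neutrophil markers and high for erythroid markers, while library 1 of IMQ-treated Bmal1 Mye-/-, the lowest for mature markers, is near 0 at -0.11.

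The genes whose within-group pattern was most like the mean of the 10 were Nfkbiz (Pearson 0.90), Osm (0.88), Dnajb9 (0.87), Egr2 (0.86), Gm29766 (0.86), Snora28 (0.85), Plk3 (0.85), Zfp622 (0.85), Trib1 (0.85) and Egr3 (0.85), over 20 libraries. Nfkbiz encodes an atypical IκB protein, Osm the cytokine oncostatin M, and Egr2 and Egr3 are paralogues of Egr1. Nfkbiz, Egr2, Plk3, Trib1 and Egr3 belong to the list of 36 other immediate early genes, whose median correlation was 0.57. Over all other genes tested the median was -0.05, with the 5th and 95th percentiles at -0.48 and 0.45, and the heat shock list had a median of -0.17. Within that list of 36, Klf10 (-0.59) ran the other way, below the 5th percentile of all other genes tested. Ier5l (-0.24), Myc (-0.16), Sgk1 (-0.07), Nfkbia (-0.06), Nr4a3 (-0.01) and Zfp36l1 (-0.26), a paralogue of Zfp36, were also negative but above that percentile. Without the 3 libraries that stood apart the 10 correlations were 0.80 (Egr3) to 0.97 (Zfp622).

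Among these 36 other immediate early genes, 0 passed in WT with IMQ (edgeR, 9 at an unadjusted p under 0.05, and 2 by DESeq2), and 24 of 36 estimates were below 0. In Bmal1 Mye-/-, 7 of 36 fell and 1 rose, and 12 had an unadjusted p under 0.05. These 8 of 36 were close to the 23.5% of all genes called in either direction, and the 12 compare with 39.3%. The 7 of 36 that fell compare with 9.04% of all genes called lower. Ptgs2, which encodes cyclooxygenase 2, fell by 4.10 on the log2 scale (SE 0.83, adjusted p = 0.00624). It averaged 166 ± 108 CPM in untreated and 9.73 ± 7.55 in IMQ-treated Bmal1 Mye-/- (SD, n = 5), and 187 ± 34.9 and 28.3 ± 23.9 in WT. Egr2 gave -2.03 (SE 0.56, adjusted p = 0.0179) and Dusp2, a nuclear MAP kinase phosphatase, -1.71 (SE 0.48, adjusted p = 0.0188). Klf4, a transcription factor of the monocyte lineage, rose by 1.89 (SE 0.62, adjusted p = 0.0365), with 137 CPM in treated library 1, the one with high monocyte markers, and 10.8 as the group median. Without the 3 libraries that stood apart 4 of the 36 passed. Between genotypes 0 of 36 passed in untreated mice (0 unadjusted, 0 by DESeq2) and 0 after IMQ (6 unadjusted, 2 by DESeq2).

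Genes that work with the 10 were counted in 6 lists, to be read against the 3.95% of all genes called with IMQ in WT and the 23.5% called in Bmal1 Mye-/-. Of 19 other AP-1 and ATF family genes, 3 fell and 1 rose with IMQ in Bmal1 Mye-/-: Fosl2 (-0.88, SE 0.30), Ddit3 (-0.80, SE 0.25) and Jdp2 (-0.50, SE 0.15) fell, and Atf5, a factor of the stress response, rose (2.02, SE 0.44). Of 6 measured genes for serum response factor and its partners, Mkl2 alone passed (0.60, SE 0.17, Bmal1 Mye-/-). Of 19 genes of the MAP kinase cascade, 4 passed in Bmal1 Mye-/-, among them Map2k3 (-0.67, SE 0.20) and Map2k4 (-0.46, SE 0.16), which encode kinases upstream of p38 and JNK and fell. Of 8 measured dual-specificity phosphatases, Dusp8 rose in WT (3.65, SE 0.87, adjusted p = 0.0276) and Dusp2 fell in Bmal1 Mye-/-. Of 5 measured mRNAs known as tristetraprolin targets, Ccl3 fell in both genotypes, by 1.76 (SE 0.45, adjusted p = 0.0366) in WT and by 1.36 (SE 0.45, adjusted p = 0.0360) in Bmal1 Mye-/-. Of 11 heat shock genes, Dnaja1 alone passed (-0.63, SE 0.16, Bmal1 Mye-/-). The changes in Bmal1 Mye-/- named here had adjusted p values from 0.00751 (Atf5) to 0.0410 (Map2k4), and no gene of these 6 lists passed between the genotypes.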

How the data were processed

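The deposited files held raw counts of reads per gene, 1 file for each of 20 libraries, with 24421 gene symbols. The submitters' processing notes name bcl2fastq, STAR 2.7.8a and HTSeq 2.0.1 with mm10, while the study's methods describe TopHat and RPKM values for its own tests, so which aligner made the counts rests on the notes. Annotation and strand setting were not given in the sources used here. Poly(A) libraries were sequenced on 2 kinds of instrument, with no label for which library ran on which. A joined table repeated the same counts and was not used. From 51.9% to 57.8% of the reads in each file were listed as outside any feature and were left out, and 37.4% to 41.9% were gene counts.

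Counts as deposited by the authors were tested with edgeR 4.0.16 (R 4.3.3): TMM factors (0.855 to 1.38), filterByExpr, 1 quasi-likelihood fit of the 4 groups (14030 genes) and Benjamini-Hochberg adjustment, with a threshold of 0.05. CPM, log2 CPM (prior count 2) and within-group deviations came from the same factors. In simulated data for IMQ against untreated Bmal1 Mye-/- mice, 191 of 200 genes changed by 2 log2 units were recovered, with 8 unchanged genes called. Each gene was drawn independently around 1 mean, and the lowest expressed genes were not among those changed. The simulation held no swings shared between genes and no libraries that stood apart. Of the 10 genes only Egr1 had an estimate beyond 2 log2 units, so the recovery does not give the power for them. No replicate pair agreed within sampling noise. Replicates are separate mice by the study's account. Intervals are 95%. Alternatives were RLE factors, no low-count filter, only the 2 groups compared, a replicate block, limma 3.58.1 on log2(CPM + 0.1), DESeq2 1.42.0, each library left out and, chosen after the data were seen, 3 libraries left out together. The titles number mice 1 to 5 in every group. Deviations of same-numbered libraries correlated at 0.128 to 0.426 in all 5 pairs of treated and untreated Bmal1 Mye-/- mice, over the limit of 0.1 used for pairing, at 0.0728 to 0.384 in WT (4 of 5 over 0.1), and at -0.441 to 0.206 and -0.497 to 0.343 between the genotypes. The pairing comes from the data, as no label says what the numbers share.

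The 10 genes and all gene lists were chosen with earlier results of these data known. Named were all 10 genes, up to 3 genes per list, comparison and direction past the threshold with the largest fold change, the 10 genes most like the mean of the 10, and Arntl and Lyz2. Marker sums named beside results come from fixed lists. Sequences and gene structure came from GENCODE M21 and RefSeq tables of GRCm38. Some results for genes of the MAP kinase cascade are not reported here.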

Additional observations from a re-analysis of the deposited data

Results flagged for a closer look

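Each gene was checked in each group of 5 libraries for a single library far from the others, where the gap to the next value takes most of the range. Of 40 such groups 4 were flagged. The limit used flags about 1 in 20 by chance where values are normally distributed. It was applied to CPM without logs, and the genes vary together, so that rate is only a rough guide here. Library 3 of IMQ-treated WT was flagged low for Zfp36 (547 CPM, the others 1801 to 2032) and for Junb (425 CPM, the others 1178 to 1407), and it is the library with 9621 CPM of mature neutrophil markers. Library 1 of IMQ-treated Bmal1 Mye-/- was flagged high for Atf3 (19.4 CPM, the others 2.78 to 6.83), and it is the library with 3901 CPM of monocyte markers. Library 2 of untreated WT was flagged high for Zfp36 (2421 CPM, the others 1640 to 1857). The part of the markers in these values was not tested. No gene of the 10 passed the test of a difference between genotypes in its response to IMQ.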

How the results depend on the processing

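The calls in untreated Bmal1 Mye-/- against WT (0 of 10), in the interaction (0 of 10) and of Egr1 with IMQ in Bmal1 Mye-/- held under all alternatives run. Of the 10 genes with IMQ in Bmal1 Mye-/-, 1 passed in place of 2 with no filter or with only the 2 groups compared, and 1 to 2 with 1 library left out, while 3 passed with DESeq2 (Fos gained) and 3 without the 3 libraries (Fos and Atf3 gained, Junb lost). DESeq2 called 1 in WT with IMQ. Without 1 library, 0 to 2 passed between IMQ-treated genotypes, 2 without library 3 of WT. Of the 36 other immediate early genes, limma called 2 and DESeq2 2 in WT, DESeq2 2 between IMQ-treated genotypes, and without the 3 libraries 1 passed in WT and 4 in Bmal1 Mye-/-. With 1 library left out the ranges were 0 to 5 in WT, 2 (without library 4 of untreated mice) to 10 in Bmal1 Mye-/-, and 0 to 6 (without library 3 of WT) between IMQ-treated genotypes. The count over all genes moved most. In WT with IMQ it was 326 with no filter, 186 with 2 groups, 190 with the replicate block, 1494 with DESeq2, 1236 without the 3 libraries and 48 to 1989 without 1 library. In Bmal1 Mye-/- it was 2037 without the 3 libraries and 1612 to 4037 without 1. With 2 groups it was 59 between untreated and 16 between IMQ-treated genotypes, where DESeq2 gave 310 and leaving out 1 library 20 to 3129. The interaction gave 0 to 1. The cause of these moves was not tested. Counting error was largest for Atf3, at 2.20 CPM in its lowest library.

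With the replicate block 2 of the 10 genes and 3114 of all genes passed with IMQ in Bmal1 Mye-/-, with no change of call among the 10 genes. Same-numbered libraries correlated in this comparison, but no label says that the numbers pair the mice.

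Some differences that passed no test changed sign, on the log2 scale. With no filter these were untreated genotypes (Egr1 -0.011), IMQ-treated genotypes (Jun 0.00067). With the replicate block they were IMQ in Bmal1 Mye-/- (Fosb -0.037), untreated genotypes (Fos 0.0042, Egr1 -0.027), IMQ-treated genotypes (Jun 0.094). With limma they were IMQ in Bmal1 Mye-/- (Jun 0.21, Jund 0.032), untreated genotypes (Jun -0.13, Egr1 -0.30), IMQ-treated genotypes (Fos 0.064, Jun 0.41, Dusp1 0.10), the interaction (Fos 0.21, Jun 0.55, Jund 0.18, Dusp1 0.34). Without the 3 libraries they were IMQ in WT (Fosb 0.0041, Jun 0.10, Jund 0.10, Ier2 0.072, Zfp36 0.0017), IMQ in Bmal1 Mye-/- (Fosb -0.080), IMQ-treated genotypes (Fosb -0.35, Atf3 -0.21), the interaction (Fosb -0.084, Atf3 -0.47). With 1 library left out the ranges that crossed 0 were IMQ in WT (Jund -0.18 to 0.11, Jun -0.47 to 0.14, Ier2 -0.25 to 0.079, Fosb -0.80 to 0.095, Zfp36 -0.29 to 0.011), IMQ in Bmal1 Mye-/- (Jun -0.30 to 0.23, Jund -0.26 to 0.087, Fosb -0.30 to 0.92), untreated genotypes (Egr1 -0.38 to 0.24, Ier2 -0.16 to 0.15, Fos -0.34 to 0.11, Jun -0.28 to 0.24, Zfp36 -0.13 to 0.15, Fosb -0.60 to 0.060, Dusp1 -0.58 to 0.12, Junb -0.016 to 0.39, Atf3 -0.16 to 0.65), IMQ-treated genotypes (Jun -0.18 to 0.41, Fosb -0.32 to 1.12, Atf3 -0.046 to 0.97, Fos -0.47 to 0.031), the interaction (Jun -0.25 to 0.39, Dusp1 -0.32 to 0.38, Jund -0.23 to 0.13, Fos -0.42 to 0.13, Fosb -0.041 to 1.41, Atf3 -0.29 to 0.89).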
